A study of Arabidopsis thaliana with 4 samples.

Results

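The RPP5 locus is a tandem array of TIR-NLR immune receptor genes on chromosome 4 of Arabidopsis thaliana that includes SNC1, RPP4 and RPP5. Its 7 members, AT4G16860 (RPP4), AT4G16890 (SNC1), AT4G16900, AT4G16920, AT4G16940, AT4G16950 (RPP5) and AT4G16960, were listed by gene identifier and position. The rule used no measured value, but the array was chosen with earlier results of these data known. They are 7 of the 17099 genes analysed, out of 37899 annotated. They span 62.6 kb of the TAIR10.1 assembly, at chr4:9488466-9551028, and all are read from the minus strand.

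The data are mRNA-Seq positions from poly(A) RNA of leaves, taken from plants 3 weeks old under long days. There is 1 library for each of 4 genotypes, all in the Col-0 ecotype: suvr5-1, a T-DNA line that is mutant for the SET-domain zinc finger protein SUVR5; ldl1-2 ldl2, a double mutant for the paralogous histone H3K4 demethylases LDL1 and LDL2; suvr5-1 ldl1-2 ldl2, which carries all of these mutations and is called the triple mutant below; and Col-0, the wild type. The number of plants in a library was not given in the sources used here. With 1 library per genotype no value has a replicate check, and each test below compares the reads of 2 libraries, not the genotypes.

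TIR-NLR proteins join a TIR domain, a nucleotide-binding NB-ARC domain and leucine-rich repeats, and they trigger defence when they detect a pathogen effector. SNC1 signals through EDS1 and PAD4 to salicylic acid, and plants with too much SNC1 are dwarfed and autoimmune. RPP4 and RPP5 give resistance to downy mildew, RPP5 as studied in the ecotype Landsberg erecta, and small RNAs and chromatin are known to restrain transcripts of the whole array.

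Mapped reads numbered 15083462 in suvr5-1, 10406023 in ldl1-2 ldl2, 12054837 in suvr5-1 ldl1-2 ldl2 and 11722242 in Col-0. Reads that started on exons of analysed genes numbered 4612377, 2585793, 2990530 and 2953437 in these libraries in that order, and levels are given as RPKM, reads per kilobase of merged exon and per 1000000 such reads. LDL2 had 26 reads in suvr5-1, 8 in ldl1-2 ldl2, 5 in suvr5-1 ldl1-2 ldl2 and 25 in Col-0. SUVR5 and LDL1 lie outside the analysed stretches and were not analysed here. The 4 leaf markers, genes of the photosynthetic antenna and photosystem I, summed to 20451 to 29470 RPKM. The 2 anther and 2 root hair markers had no read in any library, and the 4 flower markers together had 41 reads in suvr5-1, 70 in ldl1-2 ldl2, 68 in suvr5-1 ldl1-2 ldl2 and 21 in Col-0.

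The members are near copies of each other, which limits what short reads can show of them. RPP4, AT4G16920 and RPP5 have an exon 5 of 480 bases, and exon 3 of SNC1 has the same length. The exon 5 of AT4G16920 and that of RPP5 are identical over all 480 bases. RPP4 differs from RPP5 at 39 of these bases and SNC1 differs from RPP5 at 33. Bases 125 to 214 of this coding exon are shown 5′ to 3′, with capitals where a gene differs from RPP5, because they show which copies a short read can tell apart.
RPP4: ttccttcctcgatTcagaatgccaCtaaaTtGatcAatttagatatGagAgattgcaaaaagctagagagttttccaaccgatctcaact
SNC1: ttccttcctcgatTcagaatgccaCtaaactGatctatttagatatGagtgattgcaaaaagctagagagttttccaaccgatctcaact
AT4G16920: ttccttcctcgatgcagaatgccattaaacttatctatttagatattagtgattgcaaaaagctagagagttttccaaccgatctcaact
RPP5: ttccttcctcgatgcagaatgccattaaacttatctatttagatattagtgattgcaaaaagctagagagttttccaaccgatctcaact
These stretches are the minus strand of TAIR10.1 at chr4:9489638-9489727 for RPP4, chr4:9503053-9503142 for SNC1, chr4:9521350-9521439 for AT4G16920 and chr4:9541341-9541430 for RPP5, placed by the RefSeq annotation of that assembly and not by read positions. In this window RPP4 has 7 differences, SNC1 has 4 and AT4G16920 has 0, and the last 40 bases are the same in all 4 genes.

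Reads were absent from such identical copies. Over the exons of all analysed genes, positions whose 36-base word occurs once in the genome, together with the words 60 bases to each side, held 10843237 reads of the 4 libraries on 22970030 positions. Positions whose words were repeated over the same span held 0 reads on 383437 positions. Exon 5 of RPP5 and that of AT4G16920, with no unique 36-base word, had 0 reads in each library, whereas the matching exon of RPP4 had 19 reads in suvr5-1, 35 in ldl1-2 ldl2, 49 in suvr5-1 ldl1-2 ldl2 and 19 in Col-0. Exon 3 of SNC1 had 27, 22, 21 and 14 reads in the same order. Exon 2 of AT4G16940 and that of AT4G16960 are identical over 1090 bases and had 0 reads too. A count of 0 in these exons therefore says nothing about transcription of either copy. The share of exonic positions with a unique 36-base word was 60.7% for RPP4, 68.5% for SNC1, 84.7% for AT4G16900, 51.9% for AT4G16920, 67.8% for AT4G16940, 47.1% for RPP5 and 41.9% for AT4G16960. The share of repeated words in an RPKM over all exon bases thus differs between members. RPP4, SNC1 and RPP5 had lower RPKM at repeated than at unique 36-base words in every library. AT4G16900 had higher RPKM at the repeated ones, from 10 to 14 reads in a library. With 28-base words it had 6.44 RPKM at repeated and 6.61 RPKM at unique words in ldl1-2 ldl2. Words were looked up at uncorrected read positions, displaced by 17 bp in the window of RPP4 and 9 bp in that of the other members. The split into repeated and unique words is therefore approximate.

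**Figure D1:**
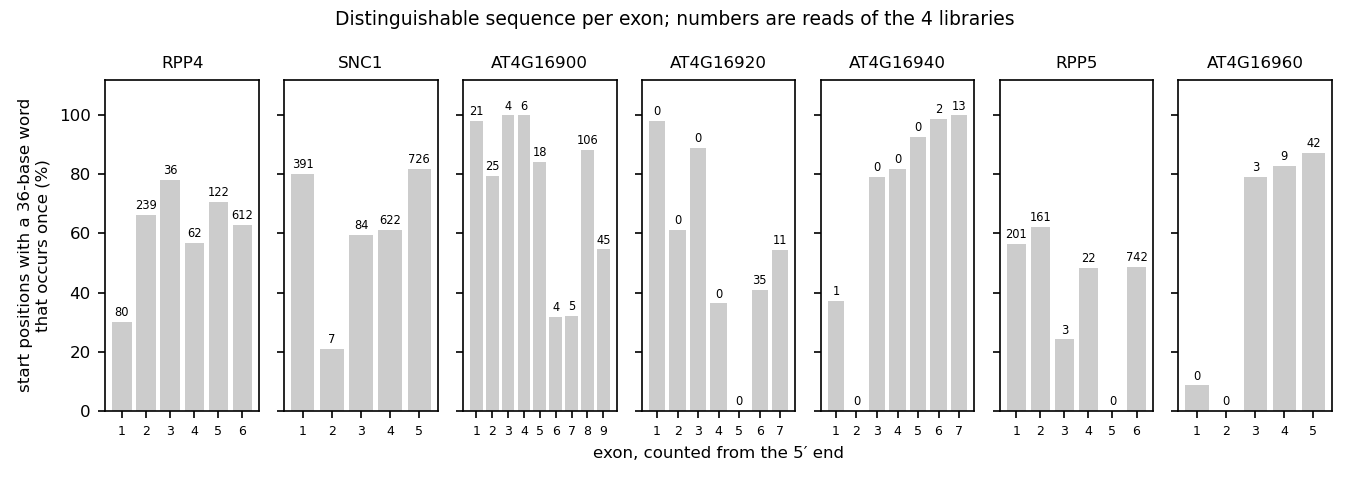
Bars give, for each exon of each member, the percentage of start positions whose 36-base word occurs once in TAIR10.1, and the number above a bar is the sum of reads of the 4 libraries on that exon. The exons at 0% (exon 5 of AT4G16920 and of RPP5, exon 2 of AT4G16940 and of AT4G16960) hold 0 reads, and exons 1 and 3 of AT4G16920 hold 0 reads although most of their words are unique.

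SNC1, RPP4 and RPP5 carried most of the reads of the array in every library. AT4G16900 was lower, and AT4G16920, AT4G16940 and AT4G16960 were near the detection limit. SNC1 had 521 reads in suvr5-1, 497 in ldl1-2 ldl2, 492 in suvr5-1 ldl1-2 ldl2 and 320 in Col-0. As levels these are 22.1 RPKM (95% exact Poisson interval 20.2 to 24.1), 37.6 RPKM (34.3 to 41.02), 32.2 RPKM (29.4 to 35.1) and 21.2 RPKM (18.9 to 23.6) in the same order. The intervals of the 2 genotypes with ldl1-2 ldl2 lay above those of suvr5-1 and Col-0, and within each of these pairs the intervals overlapped. All such intervals cover counting error only, with each read taken as independent, which was not tested. The reads of SNC1 lay on 176 distinct positions in suvr5-1, 141 in ldl1-2 ldl2, 232 in suvr5-1 ldl1-2 ldl2 and 170 in Col-0. Those of RPP5 lay on 122, 89, 148 and 140 positions in the same order, so the stacking of reads differed between libraries.

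RPP4 had 236 reads in suvr5-1, 432 in ldl1-2 ldl2, 267 in suvr5-1 ldl1-2 ldl2 and 216 in Col-0. Its level was 12.7 RPKM (11.1 to 14.4) in suvr5-1, 41.5 RPKM (37.7 to 45.6) in ldl1-2 ldl2, 22.2 RPKM (19.6 to 24.996) in suvr5-1 ldl1-2 ldl2 and 18.2 RPKM (15.8 to 20.8) in Col-0. The ldl1-2 ldl2 library stood above the other 3, and suvr5-1 stood below them. The intervals of suvr5-1 ldl1-2 ldl2 and Col-0 overlapped.

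RPP5 had 327 reads in suvr5-1, 271 in ldl1-2 ldl2, 291 in suvr5-1 ldl1-2 ldl2 and 240 in Col-0, which is 12.2, 18.1, 16.8 and 14.0 RPKM in that order. Its order of levels was that of RPP4, in a narrower range, and each neighbouring pair in that order had overlapping intervals. AT4G16900 had 66 reads in suvr5-1, 64 in ldl1-2 ldl2, 54 in suvr5-1 ldl1-2 ldl2 and 50 in Col-0, or 3.80, 6.57, 4.79 and 4.49 RPKM, and no neighbouring pair of its libraries was separated by its intervals.

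The remaining 3 members are TIR-NBS-LRR class genes with few reads. AT4G16920 had 18 reads in suvr5-1, 15 in ldl1-2 ldl2, 6 in suvr5-1 ldl1-2 ldl2 and 7 in Col-0. AT4G16940 had 5, 1, 3 and 7 reads and AT4G16960 had 16, 9, 22 and 7 reads in the same order. Their highest level was 2.41 RPKM, for AT4G16960 in suvr5-1 ldl1-2 ldl2.

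**Figure D2:**
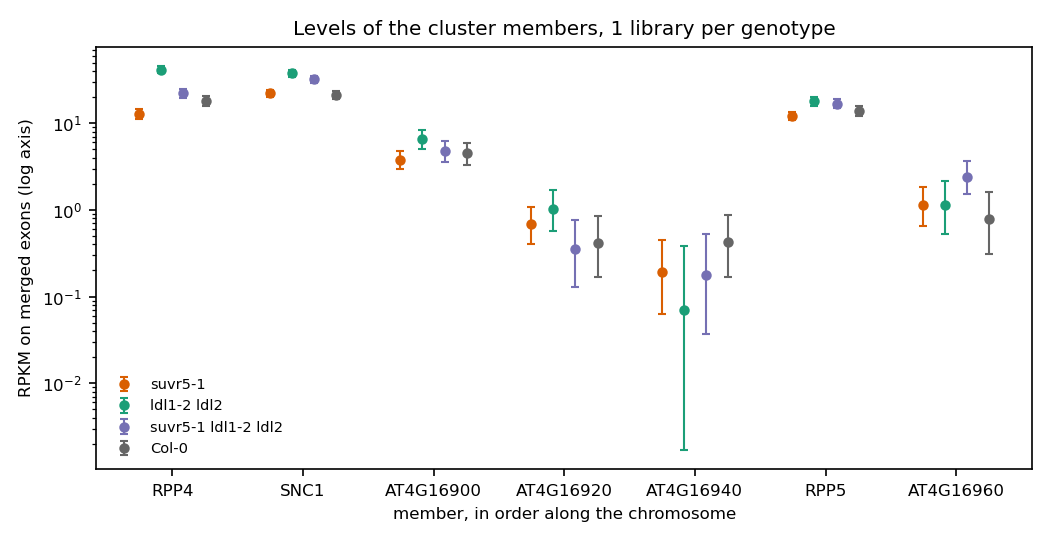
Points give the RPKM of each member on merged exons (log axis) in suvr5-1, ldl1-2 ldl2, suvr5-1 ldl1-2 ldl2 and Col-0, 1 library each, and bars are 95% exact Poisson intervals of the reads. RPP4 in ldl1-2 ldl2 stands at 41.5 RPKM against 18.2 RPKM in Col-0, and the intervals of AT4G16940 overlap in all 4 libraries.

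Counting only positions with a unique 36-base word, and dividing by their number, moved RPP5 in Col-0 to 25.1 RPKM, beside 24.6 RPKM for SNC1 and 22.0 RPKM for RPP4 there. In ldl1-2 ldl2 the same measure gave 28.8 RPKM for RPP5, 42.5 RPKM for SNC1 and 51.5 RPKM for RPP4. Unique 28-base words gave 24.6 RPKM for RPP5 and 25.003 RPKM for SNC1 in Col-0, so the order of these genes there depends on the word length. The 36-base words were chosen after seeing the data. These values are approximate too, because words were looked up at uncorrected read positions. On all exon bases RPP5 was at 14.0 RPKM and SNC1 at 21.2 RPKM in Col-0.

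In suvr5-1 against Col-0, no member passed the rule used here for a change, a ratio over 2 and an adjusted P under 0.01 by Fisher's exact test with Benjamini-Hochberg adjustment over all genes with a read in either library. Of the 11878 genes tested, 5.92% were called higher and 5.15% lower (703 and 612 genes). RPP4 was at 0.70 of its Col-0 level (log2 ratio -0.52, 95% interval of the ratio 0.58 to 0.85), with an adjusted P of 0.000905 by Fisher's exact test, and 24.9% of the genes tested had a value under 0.01. SNC1 was at a ratio of 1.04 (0.91 to 1.20) and RPP5 at 0.87 (0.74 to 1.03), so a doubling of either lies outside these counting intervals. With all nuclear reads as the library size the median of all genes moved by 0.27 on the log2 scale, the calls became 1173 higher and 355 lower, the log2 ratio of RPP4 was -0.25 with an adjusted P of 0.148 by Fisher's exact test, and that of RPP5 turned to 0.07. In the same setting SNC1 had a log2 ratio of 0.33 with an adjusted P of 0.00514 by Fisher's exact test, under the 2-fold rule but past 0.01.

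In ldl1-2 ldl2 against Col-0, RPP4 was the only member called. It was 2.28-fold higher (1.94 to 2.70; log2 ratio 1.19), with an adjusted P of 4.42e-23 by Fisher's exact test, where 9.05% of the genes tested were called higher and 5.95% lower. That is 1 of 7 members, and the share is near the background. SNC1 was 1.77-fold higher (1.54 to 2.05; adjusted P 1.08e-14 by Fisher's exact test), under the 2-fold rule. RPP5 had a log2 ratio of 0.37 (adjusted P 0.0148 by Fisher's exact test) and AT4G16900 one of 0.55 (adjusted P 0.109). AT4G16920 (2.45-fold, interval 0.94 to 7.10) and AT4G16960 (1.47-fold, 0.49 to 4.64) could be neither called nor bounded below 4-fold at this depth. For AT4G16940, a single read in the double mutant stood beside 7 in Col-0, a ratio of 0.16 (0.0036 to 1.27). An adjusted P under 0.01, in either direction, was found for 28.9% of the genes tested in this comparison.

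The RPP4 call was lost when reads that share a position and strand were counted once. That setting also lowered the number of genes called in every comparison, as given at the end. With strand ignored, RPP4 had 432 reads on 137 distinct positions in ldl1-2 ldl2, against 216 reads on 131 positions in Col-0. The position with the most reads held 12 reads (2.8%) in ldl1-2 ldl2 and 7 reads (3.2%) in Col-0. With each distinct position counted once the log2 ratio was 0.74 (adjusted P 0.000409 by Fisher's exact test), under the 2-fold rule. With a beta-binomial test and a dispersion between plants of 0.1, which was assumed and not measured, its adjusted P was 0.543. This test too called fewer genes in every comparison. SNC1 with each position counted once had a log2 ratio of 0.40 (adjusted P 0.0707 by Fisher's exact test).

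The exons of RPP4 were also counted apart. The last exon, which holds the end of the coding sequence and the 3′ UTR, had 261 reads in ldl1-2 ldl2 against 109 in Col-0, a ratio of 2.74 (2.18 to 3.45). The other 5 exons together had 171 reads against 107, a ratio of 1.83 (1.43 to 2.35), and these intervals overlap. Exon 4 had 30 reads in ldl1-2 ldl2 against 1 in Col-0, and exon 1 had 14 in ldl1-2 ldl2 against 26 in Col-0. Introns of RPP4 held 45 reads in ldl1-2 ldl2 against 86 in Col-0, and with introns counted the log2 ratio of the gene was 0.85, again under the rule. In SNC1 the last exon also had the highest level in every library, 109.6 RPKM in suvr5-1, 172 RPKM in ldl1-2 ldl2, 128 RPKM in suvr5-1 ldl1-2 ldl2 and 93.8 RPKM in Col-0. Read starts are displaced by 17 bp from the annotated exons in the window that holds RPP4. In the window with the other members the displacement is 9 bp. The edges of exons, and the words looked up for reads, are off by that much.

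**Figure D3:**
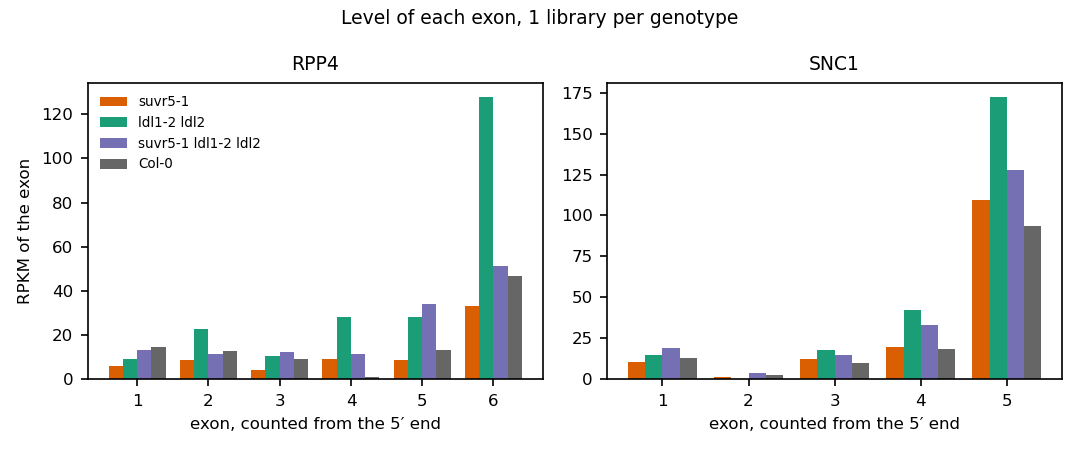
Bars give the RPKM of each exon of RPP4 (left) and SNC1 (right), counted from the 5′ end, in suvr5-1, ldl1-2 ldl2, suvr5-1 ldl1-2 ldl2 and Col-0, 1 library each and without error bars. The last exon is the highest in both genes, at 128 RPKM in ldl1-2 ldl2 against 46.7 RPKM in Col-0 for RPP4 and 172 against 93.8 RPKM for SNC1.

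In suvr5-1 ldl1-2 ldl2 against Col-0, no member was called, where 10.3% of the 12173 genes tested were called higher and 4.32% lower. SNC1 was 1.52-fold higher (1.32 to 1.75; adjusted P 4.03e-08 by Fisher's exact test). RPP4 was at 1.22-fold (1.02 to 1.47; adjusted P 0.0789) and RPP5 at 1.20-fold (1.01 to 1.43; adjusted P 0.0965), neither past 0.01 by Fisher's exact test, as 29.2% of the genes tested were. AT4G16960 had 22 reads against 7, 3.10-fold with an interval of 1.28 to 8.60, and missed the threshold with an adjusted P of 0.0244 by Fisher's exact test. AT4G16900 had a log2 ratio of 0.09, which turned to -0.03 with median-of-ratios size factors.

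The triple mutant was also set against each of its parents. Against suvr5-1, where 10.0% of the genes were called higher and 4.72% lower, suvr5-1 ldl1-2 ldl2 had no called member, but RPP4 was 1.74-fold higher (adjusted P 4.53e-09), SNC1 1.46-fold (2.24e-08) and RPP5 1.37-fold (0.000454), all by Fisher's exact test, where 31.9% of the genes tested had an adjusted P under 0.01. With all nuclear reads as library size, which lowers the median of all genes by 0.30 in this comparison and changes the calls to 801 higher and 1068 lower, the log2 ratios were 0.50 for RPP4 (adjusted P 0.000394), 0.24 for SNC1 (0.0215) and 0.16 for RPP5 (0.298) by Fisher's exact test, so that SNC1 and RPP5 no longer passed 0.01. Against ldl1-2 ldl2, where 9.73% were called higher and 5.82% lower, RPP4 was at 0.53 of its level in the double mutant (0.46 to 0.62; log2 ratio -0.90; adjusted P 4.69e-15 by Fisher's exact test), just short of the 2-fold rule, where 29.9% of the genes tested had an adjusted P under 0.01. With median-of-ratios size factors, which lower the median of all genes by 0.15 in this comparison and change the calls from 1179 higher and 705 lower to 893 higher and 907 lower, its log2 ratio was -1.06 and it was called. The last exon of RPP4 was at 0.40 (0.32 to 0.499) of the double mutant and its other exons at 0.74 (0.59 to 0.93). These intervals did not overlap, whereas those of the same parts overlapped in the remaining comparisons. The cause was not tested. SNC1 was at 0.86 (0.75 to 0.97; adjusted P 0.0411 by Fisher's exact test, or 0.00517 when scaled by all nuclear reads) and RPP5 at 0.93 (0.78 to 1.10) of the double mutant. The comparisons with Col-0 share 1 library, and the comparisons of the triple mutant share another, so their values are not independent. No member passed a 4-fold rule in any comparison. That rule called 2.58% of genes higher and 1.87% lower in suvr5-1, 4.31% and 2.05% in the double mutant, and 4.81% and 1.41% in the triple mutant against Col-0. For the triple mutant it called 3.81% higher and 1.47% lower against suvr5-1, and 4.03% and 2.58% against the double mutant.

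**Figure D4:**
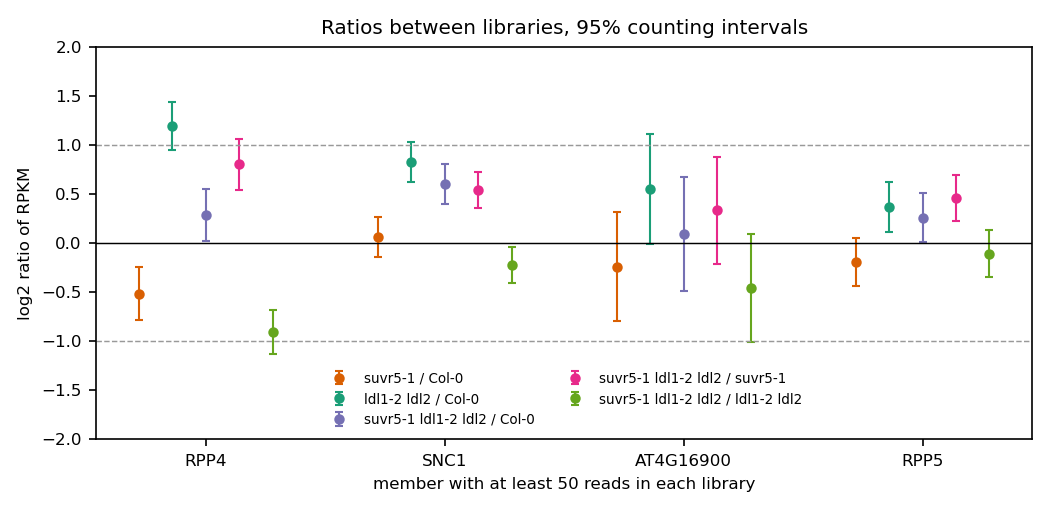
Points give the log2 ratio of RPKM in the 5 comparisons for the 4 members with at least 50 reads in each library, and bars are 95% counting intervals. Dashed lines mark the 2-fold rule, and RPP4 in ldl1-2 ldl2 against Col-0 (1.19) is the only point past it.

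Against Col-0 the median log2 ratio of the 7 members was -0.20 for suvr5-1, 0.55 for the double mutant and 0.26 for the triple mutant, beside 0.01, -0.02 and 0.12 over all genes with a read in both libraries. The 0.55 is the value of AT4G16960, from 9 reads in the double mutant against 7 in Col-0. That value was -0.04 with unique 28-base words. These medians include AT4G16920, AT4G16940 and AT4G16960, all near the detection limit. Genes beside the members were compared in the same way. AT4G16880, a leucine-rich repeat gene just upstream of RPP4, had 120 reads in suvr5-1, 154 in ldl1-2 ldl2, 62 in suvr5-1 ldl1-2 ldl2 and 159 in Col-0. It was lower in suvr5-1 (log2 ratio -1.05) and in the triple mutant (-1.38), with adjusted P of 2.1e-08 and 2.04e-10 by Fisher's exact test, and near its Col-0 level in ldl1-2 ldl2 (0.15; adjusted P 0.552). RPP4, beside it, was called higher in ldl1-2 ldl2, where AT4G16880 was not called.

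On the other side of RPP4, the pseudogene AT4G16870 had 74 reads in suvr5-1 against 23 in Col-0 and was higher there (log2 ratio 1.04; adjusted P 0.00711 by Fisher's exact test), with 33 reads in the double mutant and 21 in the triple mutant. AT4G16957, between RPP5 and AT4G16960, had 84 reads in suvr5-1 ldl1-2 ldl2 against 41 in Col-0 (log2 ratio 1.02; adjusted P 0.000693 by Fisher's exact test). AT4G16955 lies on the plus strand across exons of RPP5 and had 15 reads in ldl1-2 ldl2 against 2 in Col-0. The libraries carry no strand, so these reads cannot be told apart from RPP5. Of the 29 other genes within 20 kb of the array or inside it, 21 had a read in suvr5-1 or Col-0, and 4 were called higher and 1 lower in suvr5-1, where 5.92% and 5.15% of all genes were. AT4G16980 and AT4G16983, which share most of their reads, are 2 of these 4. In the double mutant 1 neighbour was called higher and 0 lower (9.05% and 5.95% of all genes), and in the triple mutant 1 higher and 1 lower (10.3% and 4.32%).

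**Figure D5:**
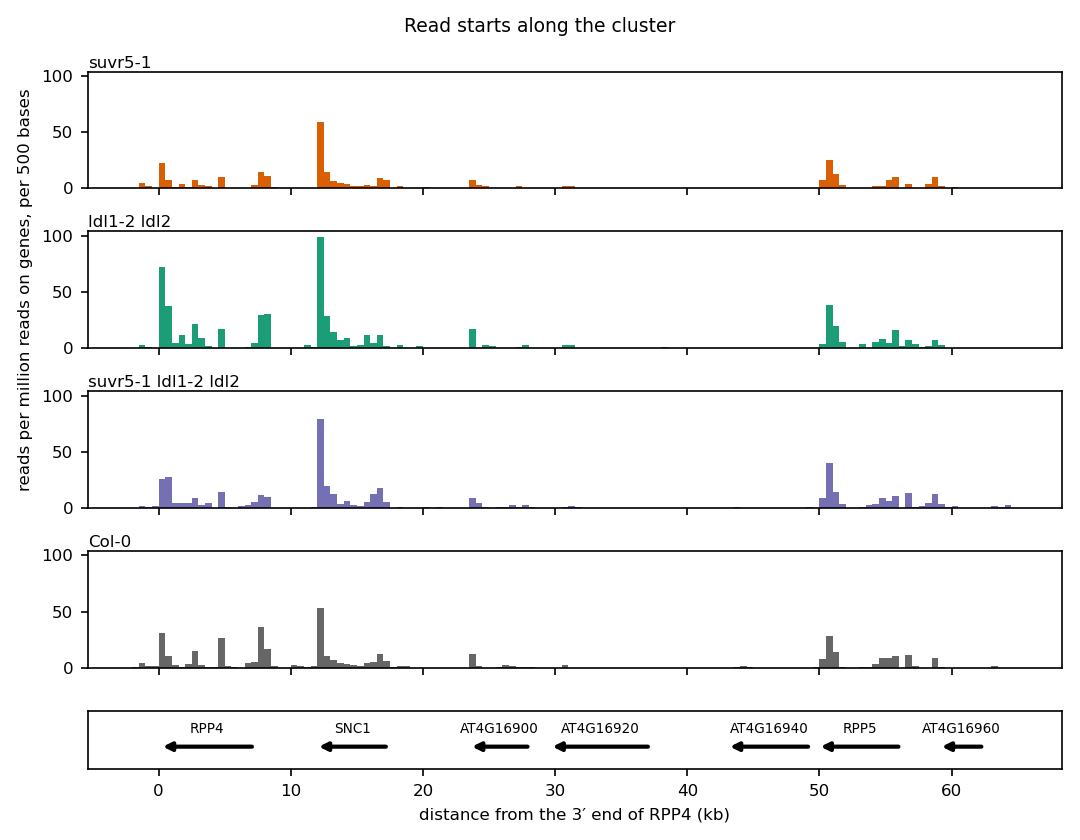
Bars give read starts per 1000000 reads on genes in bins of 500 bases along the array, from top to bottom in suvr5-1, ldl1-2 ldl2, suvr5-1 ldl1-2 ldl2 and Col-0, against the distance from the 3′ end of RPP4 in kb. Arrows mark the 7 members and their direction. Reads pile up at the 3′ ends of RPP4 and SNC1, and the peak between these genes is AT4G16880. Those of RPP5 peak in the bin at 50.75 kb, inside its annotated 3′ end at 49.8 kb.

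RLM3, a TIR gene for resistance to the fungus Leptosphaeria maculans that is annotated as TIR-NBS class, lies just past the array. It had 1343 reads in suvr5-1, 1031 in ldl1-2 ldl2, 1012 in suvr5-1 ldl1-2 ldl2 and 714 in Col-0, the log2 ratios against Col-0 being 0.27, 0.72 and 0.49, all under 2-fold. Its order of levels over the libraries was that of SNC1. AT4G16980, an arabinogalactan-protein gene, and AT4G16983 on its opposite strand share most of their reads. AT4G16980 had 6663 reads in suvr5-1 against 1437 in Col-0, a log2 ratio of 1.57.

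Other TIR-NLR genes are those most like the members, and most of them lie outside the analysed stretches. Of 97 such genes, 32 could be analysed. Against Col-0, 26 of these had a read and were tested for suvr5-1, 26 for the double mutant and 28 for the triple mutant. Called higher were 5, 9 and 11 in that order, and 0 were called lower. Of all genes tested, 5.92%, 9.05% and 10.3% were called higher and 5.15%, 5.95% and 4.32% lower. The median log2 ratios of the list over genes with a read in both libraries were 0.08, 0.92 and 0.87 in that order, beside 0.01, -0.02 and 0.12 over all genes. A second median set counts of 0 to a floor of 3 reads and left out genes with 0 reads in 1 library and at most 3 in the other. For the double mutant it was 0.84, with 2 of the 3 genes at 0 left out. No test of the difference between the lists was made.

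Among them AT1G17610 (CHS1), a TIR-NB gene whose mutation gives chilling-sensitive autoimmunity, had 103 reads in suvr5-1, 40 in ldl1-2 ldl2, 135 in suvr5-1 ldl1-2 ldl2 and 5 in Col-0. AT1G17600, which overlaps it, had 87, 61, 161 and 9 reads in the same order, and without strand reads in the overlap cannot be told apart. All 3 mutant libraries of both genes were above Col-0 by more than the highest ratio of any member. AT4G14370 had 8 reads in suvr5-1, 48 in ldl1-2 ldl2, 41 in suvr5-1 ldl1-2 ldl2 and 4 in Col-0. At the low end, AT4G19530 had 196 reads in suvr5-1 ldl1-2 ldl2 against 245 in Col-0 (log2 ratio -0.34; adjusted P 0.0417 by Fisher's exact test).

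Of the 16 analysed genes annotated as CC-NLR or other NB-ARC proteins, 3 were called higher and 1 lower in suvr5-1, 3 higher and 1 lower in the double mutant, and 5 higher and 0 lower in the triple mutant. With a read, and so tested, were 13, 13 and 15 of them in that order. Of all genes tested, 5.92%, 9.05% and 10.3% were called higher and 5.15%, 5.95% and 4.32% lower. The median log2 ratios of the list were 0.36, 0.46 and 1.15, beside 0.01, -0.02 and 0.12 over all genes. SUMM2, a CC-NLR that guards a MAP kinase cascade, had 145 reads in suvr5-1, 75 in ldl1-2 ldl2, 102 in suvr5-1 ldl1-2 ldl2 and 29 in Col-0, between 2.95-fold and 3.47-fold above Col-0.

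Genes listed for the SNC1 pathway were counted in the same way, whatever their role in it. Of 18 analysed genes of this list, 0 were called higher and 1 lower in suvr5-1, 4 higher and 1 lower in the double mutant, and 6 higher and 0 lower in the triple mutant. Of all genes tested, 5.92%, 9.05% and 10.3% were called higher and 5.15%, 5.95% and 4.32% lower in the same order. The difference between the mutants was not tested. The median log2 ratios of the list were 0.004, 0.22 and 0.31, beside 0.01, -0.02 and 0.12 over all genes. ADR1-L1, a helper NLR that acts downstream of TIR receptors, had 582 reads in suvr5-1, 713 in ldl1-2 ldl2, 1120 in suvr5-1 ldl1-2 ldl2 and 370 in Col-0. Its log2 ratio was 1.14 for the double mutant and 1.58 for the triple mutant, with adjusted P of 3.22e-35 and 5.12e-84 by Fisher's exact test. For suvr5-1 it was 0.01. EDS5, the chloroplast transporter of salicylic acid synthesis, had 89 reads in suvr5-1, 91 in ldl1-2 ldl2, 367 in suvr5-1 ldl1-2 ldl2 and 41 in Col-0, 8.84-fold higher in suvr5-1 ldl1-2 ldl2 (6.39 to 12.5). SAG101, a partner of EDS1, had 226 reads in suvr5-1, 168 in ldl1-2 ldl2, 246 in suvr5-1 ldl1-2 ldl2 and 85 in Col-0.

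Of 8 analysed salicylic acid response genes, 7 were called higher in suvr5-1, 5 in the double mutant and 8 in the triple mutant, beside 5.92%, 9.05% and 10.3% of all genes. The list was chosen with earlier results of these data known, so its counts are a description only. Their median log2 ratios over genes with a read in both libraries were 2.85, 1.95 and 4.45, and with 0 reads set to the floor of 3 they were 2.57, 2.34 and 4.72. For the double mutant 7 of the 8 genes had a read and were tested. FMO1, with 3 reads there against 0 in Col-0, was left out of the 2.34. UGT76B1, a glucosyltransferase of salicylic and isoleucic acid, had 17 reads in suvr5-1, 0 in ldl1-2 ldl2, 270 in suvr5-1 ldl1-2 ldl2 and 0 in Col-0. FMO1, which makes the systemic immune signal N-hydroxypipecolic acid, had 23, 3, 62 and 0 reads, and the transcription factor gene WRKY38 had 55, 24, 97 and 0 reads, in the same order. In suvr5-1, where 7 of these 8 genes were called higher, no member was. SNC1 had a log2 ratio of 0.06 there, and of 0.33 with all nuclear reads as library size.

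Of 11 analysed genes of chromatin and small RNA pathways, 0 were called higher in any mutant library against Col-0, and 2 were called lower in suvr5-1, 1 in the double mutant and 0 in the triple mutant. Of all genes tested, 5.92%, 9.05% and 10.3% were called higher and 5.15%, 5.95% and 4.32% lower in the same order. The median log2 ratios of the list were -0.21, -0.42 and 0.06, beside 0.01, -0.02 and 0.12 over all genes. RDR2, the RNA polymerase of the small RNA pathway that directs DNA methylation, had 9 reads in suvr5-1, 13 in ldl1-2 ldl2, 18 in suvr5-1 ldl1-2 ldl2 and 33 in Col-0, and was called lower in suvr5-1 (log2 ratio -2.52; adjusted P 2.14e-06 by Fisher's exact test). DCL4, which makes the short interfering RNAs of the trans-acting pathway, had 122, 64, 120 and 62 reads in the same order and was not called.

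Likeness to SNC1 was measured as the Euclidean distance of log2(RPKM + 1), centred over the 4 libraries, among 7594 other genes with at least 100 reads in all. With 4 points a small distance is a description only. The nearest genes were AT4G23910 (0.04), AT3G08780 (0.04), AT1G19170 (0.05), AT3G01430 (0.06) and HMGB5, a high mobility group protein gene (0.06). Of the members, RPP5 ranked 273 at a distance of 0.33, AT4G16900 ranked 349 at 0.36 and RPP4 ranked 1763 at 0.67.

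The 250 bases before the annotated start of each member were searched on both strands for TACTAGTA, the octamer bound by the zinc fingers of SUVR5, and for the W boxes TTGACC and TTGACT, which WRKY factors bind. No member had the octamer, which was present before 0.72% of 37897 genes. SNC1 had 1 W box, TTGACT, which begins 12 bases before the gene, and the other members had none, against 27.5% of all genes. These are matches of letters in 1 window of the TAIR10.1 sequence.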

How the data were processed

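The authors sequenced poly(A) RNA with an Illumina Genome Analyzer and aligned the reads. Bowtie is named in the submitters' processing notes; its settings, the assembly and the treatment of reads with several matches are not given in the sources used here. The deposited files hold chromosome, strand and leftmost position of each mapped read, in no other unit. Since reads run past the TAIR10.1 chromosome ends, displacement between reads and TAIR10.1 exon starts was measured in 478 windows of 250000 bp; 205 windows in 6 stretches (51.1 Mb), with displacements of -26 to 17 bp, were used and no position was converted. Read starts on merged exons were counted without strand and scaled by reads on genes. For each gene, 2 libraries were compared by Fisher's exact test, two-sided (scipy 1.17.1, numpy 2.4.6), with Benjamini-Hochberg adjustment; the procedure was tested on simulated data. The members and gene lists were chosen with earlier results of these data known. Genes named besides the members were, by rule, neighbours with at least 20 reads over the 4 libraries, the 3 highest and 3 lowest other TIR-NLR genes with at least 100 reads in the triple mutant against Col-0, and the 3 genes of each pathway list with the largest change there among those with at least 50 reads; some are left out of the text. Other settings, 9 listed at the start and 1 added, were tried; unique 36-base words were the one chosen after seeing the data.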

Additional observations from a re-analysis of the deposited data

Results flagged for a closer look

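For some members the log2 ratio had opposite signs when the same mutation was added to different genotypes. With 1 library per genotype the difference was not tested. In the main setting none of the ratios below passed an adjusted P of 0.01 by Fisher's exact test. Adding suvr5-1 to ldl1-2 ldl2 gave SNC1 a log2 ratio of -0.22, against 0.06 when it was added to Col-0, a difference of -0.28. Both of these signs turned when each distinct position was counted once (0.008 and -0.003). For AT4G16920 the values were -1.53 and 0.72, a difference of -2.25, and for AT4G16940 they were 1.38 and -1.13, a difference of 2.50. Adding ldl1-2 ldl2 to suvr5-1 gave AT4G16920 a log2 ratio of -0.96, against 1.29 when it was added to Col-0, again a difference of -2.25. AT4G16920 had at most 18 reads and AT4G16940 at most 7 reads in a library.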

How the results depend on the processing

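Of 347 values of the members' log2 ratios under 10 other settings, 328 kept their direction and their side of the rule for a call, and 14 turned direction, none of them called. The minimum of 10 reads, the beta-binomial test and the 4-fold threshold reuse the main ratios. No direction could turn in those settings, and the 4-fold threshold could not add a call, so the 328 overstate how far the ratios were checked. The call of RPP4 in ldl1-2 ldl2 against Col-0 was kept in 6 settings and lost in 4, which left 0 members called higher: each distinct position once (0.74), whole genes with introns (0.85), the beta-binomial test and the 4-fold threshold (both 1.19). In suvr5-1 ldl1-2 ldl2 against ldl1-2 ldl2, median-of-ratios size factors made RPP4 the 1 member called lower (-1.06). The cause was not tested, beyond what the construction of the 4-fold threshold shows.

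The values that turned direction were small. In suvr5-1 against Col-0, all nuclear reads as library size gave 0.024 for AT4G16900 and 0.069 for RPP5, and distinct positions gave -0.003 for SNC1. In ldl1-2 ldl2 against Col-0, distinct positions gave -0.064 for AT4G16900 and -0.01 for RPP5, and unique 28-base words gave -0.04 for AT4G16960. In suvr5-1 ldl1-2 ldl2 against Col-0, AT4G16900 was at -0.029 with size factors, -0.24 with distinct positions, -0.008 with unique 28-base words and -0.027 with unique 36-base words. Against suvr5-1, distinct positions gave -0.043 for AT4G16900. Against ldl1-2 ldl2, they gave 0.008 for SNC1 and 0.032 for RPP5, which was at 0.009 with unique 36-base words.

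Counts over all genes moved by more than 1.5 times in some settings. With distinct positions the genes called higher and lower were 305 and 233 in suvr5-1 (main values 703 and 612), 371 and 372 in ldl1-2 ldl2 (1070 and 704), and 631 and 345 in suvr5-1 ldl1-2 ldl2 (1258 and 526) against Col-0; for the triple mutant they were 483 and 313 against suvr5-1 (1217 and 571) and 462 and 232 against ldl1-2 ldl2 (1179 and 705). The beta-binomial test called 34 and 45, 73 and 14, 209 and 31, 92 and 14, and 98 and 37 in the same order of comparisons, and the 4-fold threshold called 307 and 222, 510 and 242, 586 and 172, 461 and 178, and 488 and 313. All nuclear reads gave 1173 and 355 in suvr5-1 against Col-0 and 801 and 1068 in suvr5-1 ldl1-2 ldl2 against suvr5-1. Size factors moved the counts by less than 1.5 times, to 1079 and 726 for suvr5-1 ldl1-2 ldl2 against Col-0 and to 1010 and 761 against suvr5-1. No paired analysis was possible because each genotype has 1 library. With a minimum of 10 reads AT4G16940 had no value in 3 of the 5 comparisons.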
